A study of Homo sapiens with 28 samples.

Results

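Aminoacyl-tRNA synthetases are the enzymes that join each amino acid to its transfer RNA. The 36 genes described here were taken by symbol from the deposited gene counts, and all of them were found among 58278 gene rows. They comprise 20 cytosolic enzymes and 16 mitochondrial enzymes, the latter with symbols that end in 2.

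RNA-seq of poly(A) RNA was made from xenografts of HCT116, an established human colorectal carcinoma cell line carrying luciferase and GFP, and from cell cultures explanted from such xenografts. The cells were injected under the skin of 5-week-old male NOD-SCID mice, an immunodeficient strain that still has its own stroma and macrophages. For 23 days the mice received by daily gavage either vehicle (Control, 3 tumors), the CDK4/6 inhibitor Palbociclib at 100 mg/kg/day (5 tumors), the glutaminase inhibitor Telaglenastat at 150 mg/kg/day (spelled Telaglenestat in the labels, 4 tumors), or both drugs at these doses (combination, 4 tumors). Another 12 libraries came from cultures, 3 for each of the 4 treatments, which were grown without any drug in DMEM/F12 medium with 2.5 mM glutamine. All 28 libraries derive from this single cell line, and the labels do not tie a culture to a sequenced tumor. Nothing in the labels says that same-numbered libraries shared a mouse or a day.

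Cytosolic synthetases charge the transfer RNAs for nuclear-encoded proteins, and their mitochondrial counterparts, also made from nuclear genes, charge those for the few proteins that mitochondria translate themselves. Several cytosolic enzymes sit in a multi-synthetase complex held together by the scaffold proteins AIMP1, AIMP2 and EEF1E1. When amino acids run short, uncharged transfer RNA activates the kinase GCN2 (EIF2AK4), which raises translation of the transcription factor ATF4, and ATF4 binds C/EBP-ATF response elements near many cytosolic synthetase genes. GARS and KARS encode both the cytosolic and the mitochondrial form of their enzyme, so their counts cover both.

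The response element was searched for in the RefSeq promoter windows (GRCh38.p14, 250 bases before to 50 after each start), as TGATGNAAN on either strand. A window was matched for 30 of the 36 genes. The letters were found in 7 of the 16 cytosolic genes with a window (43.8%), in 1 of the 14 mitochondrial genes with a window (7.1%), and in 3.6% of all 35116 windows. Since some genes have several windows, the like count per window was 33.3% of 21 cytosolic and 5.6% of 18 mitochondrial windows. The E-box CACGTG was found in 1 of these cytosolic genes (IARS) and 3 of these mitochondrial genes (CARS2, EARS2 and MARS2), against 7.3% of all windows, or per window 4.8% of the cytosolic and 22.2% of the mitochondrial ones. IARS holds both motifs, at separate places in its window. The 8 matches are shown 5′ to 3′ on the strand of the gene, because the 7 cytosolic holders were described apart from the other cytosolic enzymes. Capitals mark the match, which appears as its reverse complement where it lies on the other strand. A match is a description of letters, and binding was not measured.

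AARS, chr16:70289676-70289704, minus strand: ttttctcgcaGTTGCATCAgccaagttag
CARS, chr11:3057408-3057436, minus strand: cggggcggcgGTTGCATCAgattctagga
GARS, chr7:30594834-30594862, plus strand: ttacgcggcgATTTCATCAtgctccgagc
IARS, chr9:92293693-92293721, minus strand: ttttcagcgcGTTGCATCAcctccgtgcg
MARS, chr12:57488053-57488081, plus strand: gccggttccgGTTGCATCAgcgagggatt
NARS, chr18:57621804-57621832, minus strand: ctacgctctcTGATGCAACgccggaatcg
TARS, chr5:33440956-33440984, plus strand: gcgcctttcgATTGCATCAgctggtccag
YARS2, chr12:32756076-32756104, minus strand: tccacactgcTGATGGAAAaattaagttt

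Reads counted on genes ranged from 6273834 to 13815675 per library. Libraries differed in how gene levels followed the GC content of the gene, taken from its longest transcript. The slope, in log2 units per SD of GC content and relative to the mean of the tumors or of the cultures, was 0.246 to 0.257 in Control tumors, 0.097 to 0.359 in Palbociclib tumors, -0.385 to -0.300 in Telaglenastat tumors and -0.283 to -0.161 in combination tumors. It lay between -0.132 and 0.178 in the cultures, except for Telaglenastat culture 2 at 0.418. Replicates also differed widely in all 3 pairs of Telaglenastat cultures, not only in those with culture 2. Squared differences between 2 libraries, relative to counting noise, averaged 36.7 to 46.4 per gene there, against 4.7 to 10.9 in the other culture groups. This matters for the synthetases because their longest transcripts ranged from 41.2 to 62.6% GC, with medians of 47.7% in the cytosolic and 51.2% in the mitochondrial genes. Each fold change was therefore also computed after a correction that removes a trend on GC content and gene length from every library. A change shared by genes of one GC content is removed by that correction too, whatever its source.

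All 36 enzymes were detected in every group. Values are CPM, the share of a library that a gene takes, on library sizes scaled by TMM, and levels of different genes are compared per kilobase of exon. In Control tumors the highest level per kilobase among cytosolic enzymes was that of EPRS, which charges glutamate and proline, and the lowest that of CARS, the cysteine enzyme. EPRS reached 52.8 ± 1.63 CPM per kilobase (SD, n = 3) and CARS 6.38 ± 0.31. EPRS had 279, 288 and 297 CPM in the 3 tumors and CARS 62.4, 67.6 and 62.1 CPM. The rank of CARS rests on its length over all annotated exons, 10037 bases. In CPM alone FARSA, with 2435 bases, was lower at 41.4 ± 2.59 CPM. Among mitochondrial enzymes the isoleucine enzyme IARS2 was highest at 52.5 ± 2.61 CPM per kilobase, with 222, 228 and 207 CPM in the 3 tumors. The alanine enzyme AARS2 was lowest at 1.43 ± 0.13, and FARS2, the phenylalanine enzyme, had the same mean with an SD of 0.33. IARS2 and EPRS did not differ beyond their spread, and neither did AARS2 and FARS2.

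Most cytosolic enzymes and fewer of the mitochondrial enzymes were lower in Control tumors than in Control cultures, and the difference between the classes was not tested. The comparison used edgeR's quasi-likelihood test on all 28 libraries with Benjamini-Hochberg adjustment over 15466 genes, the adjusted p meant throughout. Of the 20 cytosolic enzymes, 16 were lower in tumors, 1 was higher (QARS) and 3 did not pass the threshold of 0.05 (DARS, FARSA and VARS). Of the 16 mitochondrial enzymes, 6 were lower (NARS2, YARS2, IARS2, RARS2, EARS2 and MARS2), 1 was higher (WARS2) and 9 did not pass. Over all genes, 22.8% were lower and 23.1% higher, with a median log2 fold change of 0.07. The median log2 fold change was -0.96 for the cytosolic and -0.21 for the mitochondrial enzymes. After the GC and length correction 17 cytosolic enzymes were lower and 0 higher, and 8 mitochondrial enzymes were lower and 1 higher (22.8% and 17.7% of all genes), with 22 of the 24 calls kept. QARS was no longer called, at a log2 fold change of -0.03.

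GARS, the glycine enzyme, had the largest difference. It read 165, 180 and 187 CPM in the 3 Control tumors and 478, 499 and 565 CPM in the 3 Control cultures. The groups did not overlap, and expression in tumors differed by -1.535 ± 0.12 on the log2 scale (SE, adjusted p = 1.82e-10). NARS2, the mitochondrial asparagine enzyme, differed most among the mitochondrial enzymes that passed. Its levels were 22.6, 23.9 and 22.4 CPM in Control tumors and 41.7, 54.4 and 47.6 CPM in Control cultures. Every culture was above every tumor, and the difference was -1.06 ± 0.15 on the log2 scale (adjusted p = 2.55e-06).

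QARS, which charges glutamine, went the other way before correction. It had 185, 208 and 198 CPM in Control tumors and 163, 123 and 178 CPM in Control cultures, so the 3 tumors were all above the 3 cultures. The log2 fold change was 0.35 ± 0.13 (adjusted p = 0.0336). WARS2, the mitochondrial tryptophan enzyme, was higher in tumors at 0.66 ± 0.18 (adjusted p = 0.00454), and it stayed so after correction at 0.93 ± 0.17 (adjusted p = 6.18e-05).

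**Figure D1:**
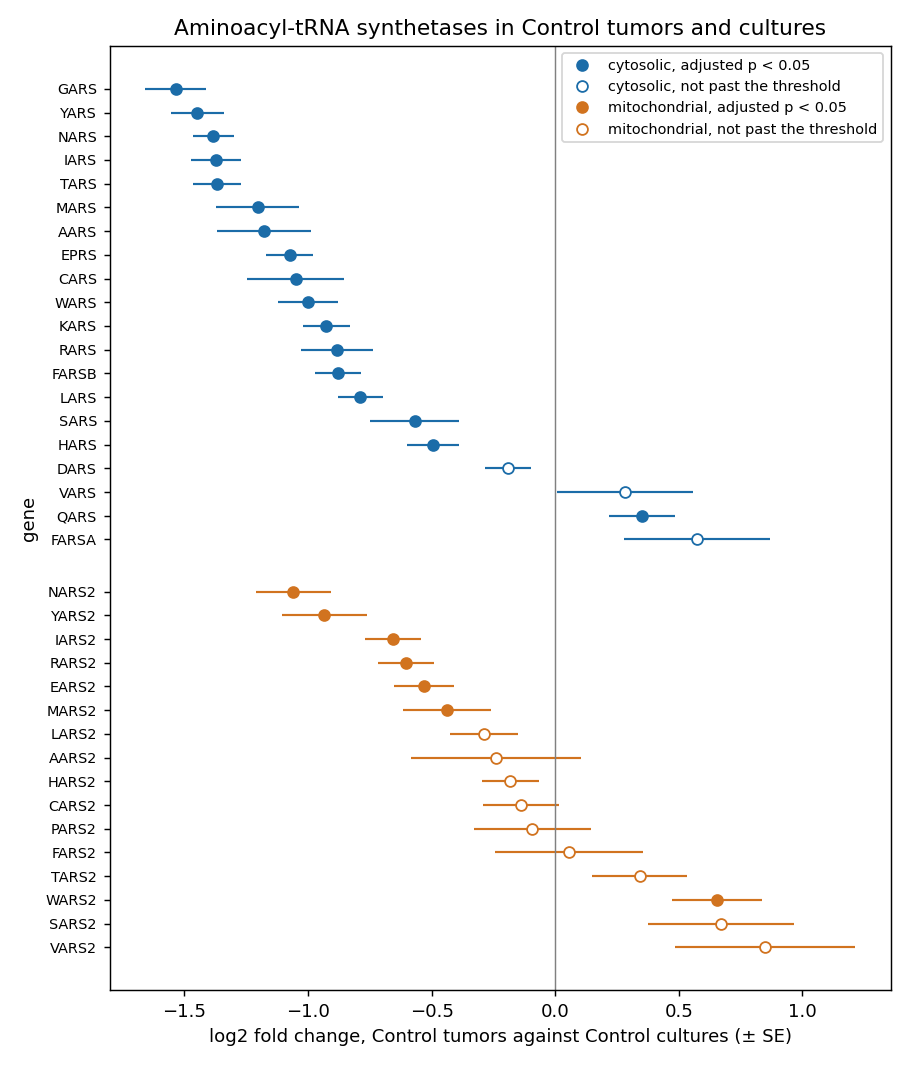
Log2 fold change of each enzyme (rows) in Control tumors against Control cultures (3 libraries each), with its standard error; filled points passed an adjusted p of 0.05. The 16 cytosolic enzymes that were lower run from GARS at -1.535 to HARS at -0.49, and the 6 mitochondrial enzymes that were lower run from NARS2 at -1.06 to MARS2 at -0.44.

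The 7 cytosolic enzymes with the response element letters in their promoter window were all called lower in Control tumors, with log2 fold changes between -1.535 (GARS) and -1.05 (CARS) and a median of -1.37. The 9 cytosolic enzymes with a window but without the letters ranged from -1.07 (EPRS) to 0.57 (FARSA), with a median of -0.88, and 7 of them were lower and 1 higher. Over all genes 22.8% were lower and 23.1% higher, and the difference between holders and others was not tested. With the correction the medians were -1.34 and -0.59. DARS, LARS, VARS and YARS have no window here. YARS and LARS were also lower, at -1.45 and -0.79, while DARS and VARS were not called, VARS at 0.28. Holders and others had similar GC content, with medians of 48.6% and 46.8%.

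For 13 amino acids each form is a single gene and the symbols differ only by the final 2, which gave 13 pairs. In all 13 the ratio of cytosolic to mitochondrial enzyme was lower in Control tumors. The change of the log2 ratio ranged from -1.71 for TARS and TARS2, the threonine pair, to -0.28 for RARS and RARS2, the arginine pair, with a median of -0.72. All 13 stayed lower after correction. The pairs share the same 6 libraries, so this is a description and was not tested. Phenylalanine, glutamate and proline also have both forms in the list, but their cytosolic enzyme has 2 subunits or serves 2 amino acids. FARSA over FARS2 went the other way, with a log2 ratio of 2.60 ± 0.40 (SD, n = 3) in Control tumors and 2.07 ± 0.63 in Control cultures, a change of 0.52 that was 0.04 after correction. FARSB over FARS2 changed by -0.935 (-0.44 after correction). The change was -0.54 (-0.14) for EPRS over EARS2 and -0.98 (-0.46) for EPRS over PARS2.

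**Figure D2:**
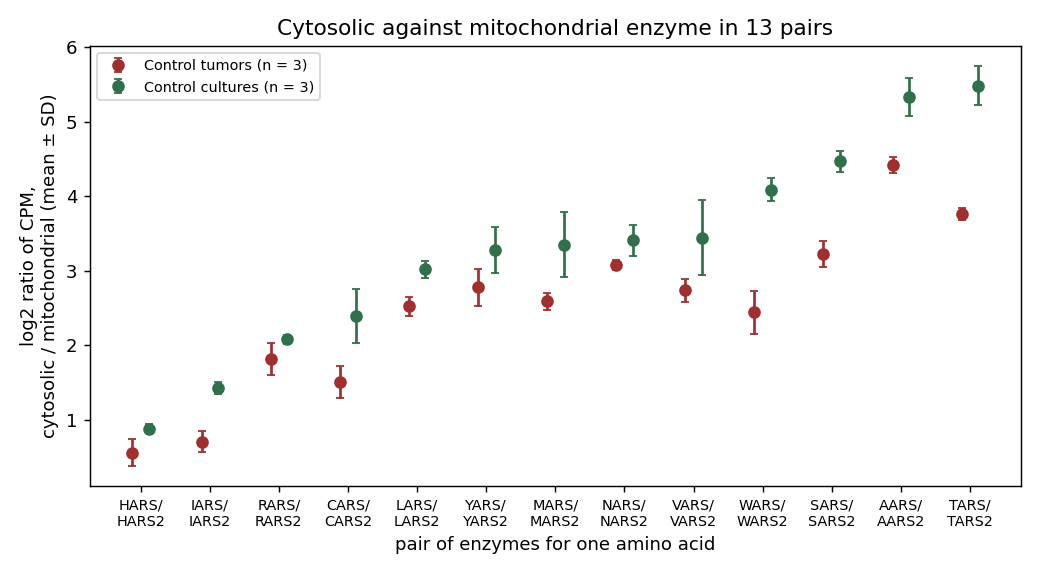
Log2 ratio of CPM, cytosolic over mitochondrial enzyme, for the 13 pairs (x axis) in Control tumors and Control cultures, as mean and SD of 3 libraries. The culture mean is above the tumor mean in every pair; the TARS pair averaged 3.76 in tumors and 5.48 in cultures.

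A summary per library covered all 8 groups. The mean log2 CPM of the 20 cytosolic enzymes minus that of the 16 mitochondrial enzymes was 2.65 ± 0.06 (SD, n = 3) in Control tumors and 3.30 ± 0.10 (n = 3) in Control cultures. It was 2.67 ± 0.06 (n = 5), 2.76 ± 0.08 (n = 4) and 2.81 ± 0.11 (n = 4) in Palbociclib, Telaglenastat and combination tumors. In the cultures from these groups it was 3.28 ± 0.14, 3.42 ± 0.15 and 3.47 ± 0.09 (n = 3 each). The 16 tumors ranged from 2.60 to 2.92 and the 12 cultures from 3.12 to 3.60, so the 2 kinds of sample did not overlap, whereas neighbouring drug groups within a kind did. The cytosolic side changed more: the summed level of the cytosolic enzymes was 3204 ± 101 CPM in Control tumors and 6359 ± 297 CPM in Control cultures, and that of the mitochondrial enzymes 572 ± 14.7 and 784 ± 37.7 CPM. The ratio of these sums was 5.60 ± 0.27 in Control, 5.62 ± 0.27 in Palbociclib, 5.32 ± 0.10 in Telaglenastat and 5.45 ± 0.08 in combination tumors. By that measure the Telaglenastat and combination tumors were not above the Control tumors.

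**Figure D3:**
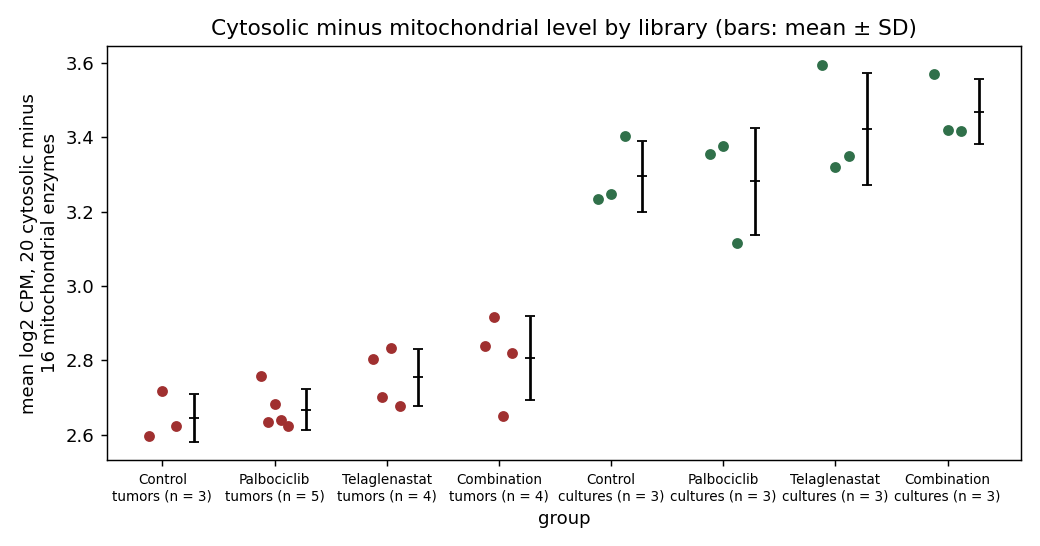
Mean log2 CPM of the cytosolic enzymes minus that of the mitochondrial enzymes in each library (points) by group (x axis), with the group mean and SD in black. Tumors lie between 2.60 and 2.92 and cultures between 3.12 and 3.60.

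In bulk samples fewer cells of a type and less RNA per cell cannot be told apart. Epithelial markers (6 of 6 at 1 CPM or more in every group) summed to 2701 to 3237 CPM in Control tumors and 1482 to 2036 CPM in Control cultures. Fibroblast markers summed to 151 to 192 CPM against 4.22 to 5.34 CPM, with DCN and LUM at 0 in both, and leukocyte markers to 16.5 to 23.6 CPM against 0.512 to 2.56 CPM, with C1QA at 0. Endothelial markers summed to 0.837 to 1.77 CPM against 0.142 to 0.636 CPM, with CDH5 at 0. Reads were counted on human genes (hg38), while the stroma and macrophages of the host are mouse cells. The marker sums here and below therefore do not measure how many host cells a tumor held. The part of these markers in the synthetase differences was not tested.

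In Telaglenastat tumors both classes split into enzymes that fell and enzymes that rose against Control tumors. Of the cytosolic enzymes 9 fell, 9 rose and 2 did not pass (HARS and KARS). Of the mitochondrial enzymes 5 fell (VARS2, SARS2, AARS2, TARS2 and LARS2), 3 rose (RARS2, IARS2 and NARS2) and 8 did not pass. Over all 14848 genes tested in tumors 28.5% fell and 22.6% rose. The class medians were 0.01 and -0.17.

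The split followed GC content in both classes. Among the 12 members with the lowest GC content (41.2 to 44.3%) 11 rose and 0 fell, and among the 12 with the highest (53.5 to 62.6%) 10 fell and 0 rose. Over all genes, of any GC content, 22.6% rose and 28.5% fell, and the shares within these GC ranges are not given. The GC slope over all genes moved the same way, from 0.246 to 0.257 in Control tumors to -0.385 to -0.300 in Telaglenastat tumors. The split is therefore not shown to be particular to the synthetases. Across the 36 members the log2 fold change and the GC content had a Pearson's r of -0.89 and a Spearman's rho of -0.89, a description over genes that share the same 7 libraries. After correction r was -0.36 and rho -0.29. Then 2 cytosolic enzymes fell (FARSA and QARS), 2 rose (GARS and YARS), 1 mitochondrial enzyme fell (VARS2) and 2 rose (CARS2 and EARS2), against 8.4% of all genes lower and 6.33% higher. YARS, the tyrosine enzyme, was called in opposite directions, at -0.18 ± 0.065 before the correction (adjusted p = 0.0269) and at 0.525 ± 0.08 after it (adjusted p = 1.43e-04).

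FARSA and FARSB are the alpha and beta subunits of one enzyme, the cytosolic phenylalanine synthetase, and they moved in opposite directions. FARSA (ENSG00000179115.10, chr19:12922479-12934037, minus strand in GENCODE 29 on GRCh38, 60.3% GC) had 44.1, 41.3 and 38.9 CPM in Control tumors and 11.2, 13.5, 11.3 and 12.8 CPM in Telaglenastat tumors. The groups were far apart, a difference of -1.87 ± 0.18 on the log2 scale (adjusted p = 9.53e-08), and FARSA was still lower after correction at -0.72 ± 0.15 (adjusted p = 0.00153). FARSB (41.6% GC) rose by 0.30 before correction and was at 0.01, not called, after it.

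VARS, the cytosolic valine enzyme (ENSG00000204394.12, chr6:31777518-31795953, minus strand, 62.6% GC), read 144, 149 and 149 CPM in Control tumors and 58.2, 53.2, 43.4 and 53.6 CPM in Telaglenastat tumors. All Telaglenastat tumors were below all Control tumors, at -1.61 ± 0.14 (adjusted p = 3.47e-08), and the corrected value of -0.29 ± 0.10 did not pass (adjusted p = 0.0544). QARS (ENSG00000172053.17, chr3:49095932-49105135, minus strand, 55.2% GC) had 185, 208 and 198 CPM against 110, 123, 102 and 116 CPM. It fell by 0.91 ± 0.08 on the log2 scale (adjusted p = 2.76e-08) and by 0.27 ± 0.065 with the correction (adjusted p = 0.00633).

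Among the mitochondrial enzymes VARS2, the valine enzyme (ENSG00000137411.16, chr6:30908242-30926459, plus strand, 59.3% GC), had 24.4, 21.2 and 20.8 CPM in Control tumors and 7.54, 8.65, 5.95 and 6.76 CPM in Telaglenastat tumors. It fell by 1.72 ± 0.19 (adjusted p = 5.22e-07), and by 0.67 ± 0.15 after correction (adjusted p = 0.00335). SARS2, the serine enzyme (ENSG00000104835.14, chr19:38915266-38930896, minus strand, 61.2% GC), had 14.1, 12.2 and 14.6 CPM against 3.77, 4.19, 4.39 and 5.71 CPM. Its fall of 1.70 ± 0.23 (adjusted p = 4.82e-06) became 0.48 ± 0.19 and did not pass (adjusted p = 0.094). AARS2 (59.3% GC) had 5.55, 6.67 and 6.26 CPM against 2.87, 3.21, 2.51 and 3.60 CPM, a fall of 1.12 ± 0.26 (adjusted p = 0.00127) that was -0.08 after correction (adjusted p = 0.895). In these 3 genes the Control and Telaglenastat tumors did not overlap. They were picked for the largest called changes, 28.5% of all genes fell, and the share of all genes without overlap is not given. Exons of VARS2 and SARS2 overlap those of other genes on the same strand (GTF2H4 over 1858 bases and AC011455.2 over 1492 bases), so their counts are uncertain. Exons of 17 members overlap a gene on the opposite strand, among them AARS2 (470 bases), YARS (396), WARS (672), NARS2 (99), GARS (99) and FARSA (25), and whether counting used strand is not stated.

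The rising enzymes changed less. EPRS (43.2% GC) had 279, 288 and 297 CPM in Control tumors and 437, 408, 439 and 437 CPM in Telaglenastat tumors, the groups lying apart. Its log2 fold change of 0.47 ± 0.08 (adjusted p = 8.02e-05) became 0.21 ± 0.07, not called (adjusted p = 0.0618). RARS2 (41.9% GC) rose by 0.49 ± 0.11 (adjusted p = 6.41e-04), and GARS (48.6% GC) kept its call, at 0.24 before and 0.22 after correction (adjusted p = 0.0471). Of the 8 enzymes of the multi-synthetase complex 5 rose (DARS, EPRS, IARS, LARS and RARS), 2 fell (MARS and QARS) and KARS did not pass, against 22.6% of all genes higher and 28.5% lower. After correction QARS was the only one of the 8 still called.

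Among the 13 pairs the ratio that changed most with Telaglenastat before correction was that of SARS and SARS2, and the one that changed least was that of NARS and NARS2, the asparagine pair. The log2 ratio of SARS to SARS2 was 3.22 ± 0.175 (SD, n = 3) in Control tumors and 4.55 ± 0.23 (n = 4) in Telaglenastat tumors. SARS (51.5% GC) had 123, 131 and 127 CPM against 109, 96.4, 102 and 112 CPM, so both enzymes fell, SARS by 0.38 ± 0.08 (adjusted p = 3.28e-04). The log2 ratio of NARS to NARS2 was 3.08 ± 0.07 and 3.115 ± 0.07, as both rose. NARS (44.3% GC) had 196, 191 and 195 CPM against 251, 271, 261 and 280 CPM, a rise of 0.345 ± 0.06 (adjusted p = 1.59e-04), and NARS2 (43.9% GC) had 22.6, 23.9 and 22.4 CPM against 29.1, 29.3, 30.7 and 33.6 CPM, a rise of 0.31 ± 0.12 (adjusted p = 0.0309). Over the 13 pairs the ratio was higher in 6 and lower in 7, and after correction lower in 4. The correction reduced the change of the SARS ratio from 1.32 to 0.35, below the changes of HARS (-0.51), CARS (-0.47) and VARS (0.39). Outside the 13, FARSA over FARS2 changed by -1.715, and by -0.90 after correction.

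**Figure D4:**
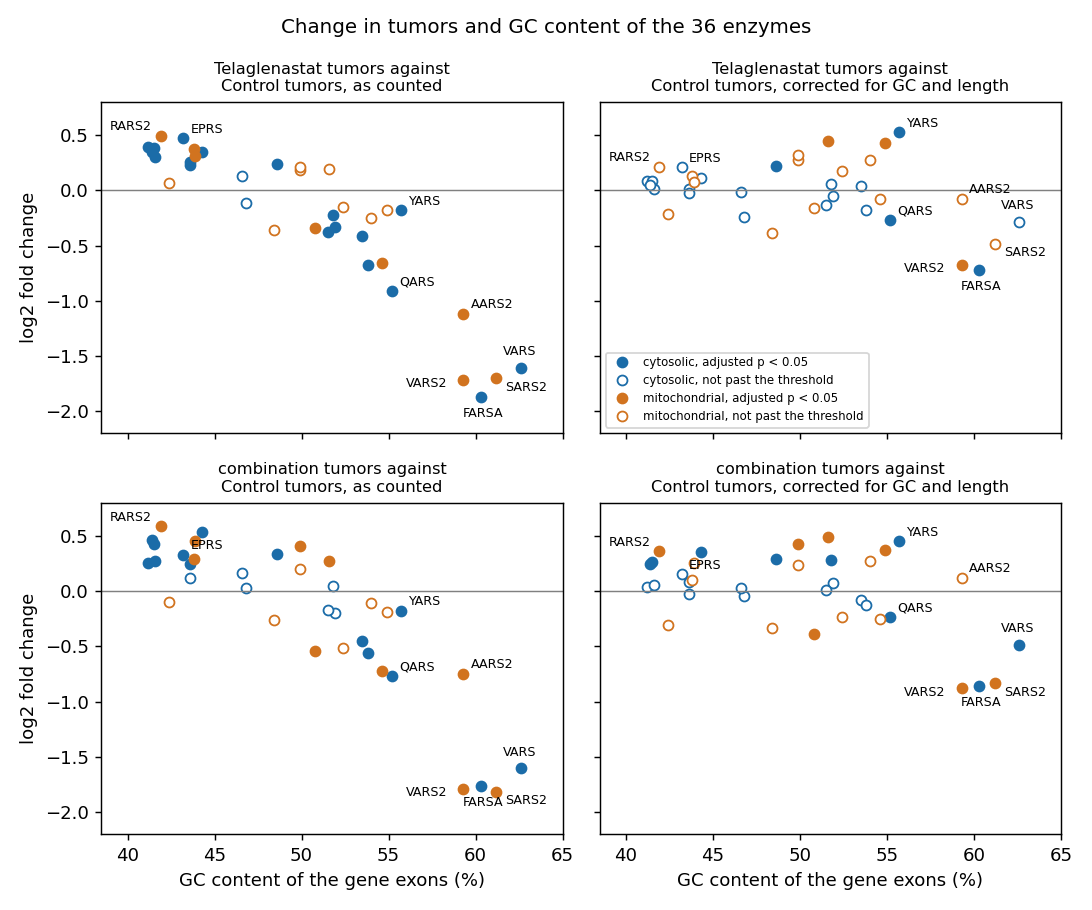
Log2 fold change (y axis) of the 36 enzymes against the GC content of their longest transcript (x axis, labelled there as exons) in Telaglenastat tumors (top) and combination tumors (bottom) against Control tumors, as counted (left) and after the GC and length correction (right); filled points passed an adjusted p of 0.05. The uncorrected values fall with GC content in both classes (r = -0.89 and -0.85), and FARSA and VARS2 are lower in all 4 panels.

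Combination tumors showed the same split against the same 3 Control tumors. Of the cytosolic enzymes 6 fell and 8 rose, and of the mitochondrial enzymes 5 fell and 5 rose, against 26.9% and 17.6% of all genes, and 12 members did not pass. The correlation with GC content was -0.85 (Spearman's rho -0.82), and -0.49 (-0.31) after correction. Of the 24 calls 14 were also made after correction, YARS with the opposite sign, and WARS and CARS2 were called only then. After correction 3 cytosolic enzymes fell (FARSA, VARS and QARS) and 6 rose (GARS, LARS, NARS, RARS, WARS and YARS), while 3 mitochondrial enzymes fell (SARS2, VARS2 and LARS2) and 4 rose (CARS2, EARS2, RARS2 and YARS2). Among all genes 13.1% fell and 13.3% rose after correction. YARS again changed sign, from -0.18 to 0.45, both called.

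FARSA had 10.5, 17.9, 10.9 and 12.8 CPM in combination tumors, all below the Control tumors, and fell by 1.77 ± 0.18 (adjusted p = 2.84e-07). VARS had 55.7, 50.6, 45.3 and 56.5 CPM and fell by 1.605 ± 0.14 (adjusted p = 6.40e-08). QARS had 115, 121, 131 and 128 CPM and fell by 0.77 ± 0.08 (adjusted p = 2.51e-07). The corrected falls of the 3 were 0.86, 0.48 and 0.23, each past the threshold.

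SARS2 had 3.28, 3.75, 5.47 and 3.97 CPM in combination tumors and fell by 1.81 ± 0.23 (adjusted p = 3.25e-06). VARS2 had 5.09, 6.00, 6.88 and 9.27 CPM and fell by 1.79 ± 0.20 (adjusted p = 5.50e-07). These 2 were also lower after correction, at -0.835 and -0.88. AARS2 had 4.43, 2.70, 5.75 and 2.80 CPM, of which 1 tumor lay within the range of the Control tumors. Its fall of 0.75 ± 0.25 (adjusted p = 0.0207) was not kept, at 0.12 after correction (adjusted p = 0.761).

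The share of counts on genes of the mitochondrial genome was 13.2 to 14.8% in combination tumors, 8.28 to 13.6% in Palbociclib tumors, 6.78 to 7.22% in Control tumors and 6.23 to 9.07% in Telaglenastat tumors. Fibroblast markers summed to 48.0 to 61.1 CPM in Telaglenastat and 95.1 to 142 CPM in combination tumors, and leukocyte markers to 3.47 to 11.9 and 11.8 to 18.6 CPM, in both cases with DCN, LUM and C1QA at 0. Epithelial markers summed to 1581 to 1744 and 2297 to 2579 CPM, but the 6 did not all move alike. Against Control tumors 4 fell and 1 rose (EPCAM) with Telaglenastat (28.5% and 22.6% of all genes). With the combination 3 fell and 2 rose (26.9% and 17.6%). After correction 4 fell and 0 rose with Telaglenastat (8.4% and 6.33%), and 2 fell and 3 rose with the combination (13.1% and 13.3%). The part of these measures in the synthetase changes was not tested.

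Palbociclib alone gave no called change before the correction, and after it NARS alone was called, as higher. The log2 fold changes against Control tumors ran from -0.22 (MARS2) to 0.38 (AARS2), and by edgeR 0 members were called lower (3.6% of all genes) and 0 higher (2.55%). At an unadjusted p under 0.05 there were 2 cytosolic and 1 mitochondrial enzymes, among 2701 of all 14848 genes. DESeq2 called 2 cytosolic enzymes higher and 0 lower, against 4.05% and 3.85% of all genes. Without Palbociclib tumor 2, a library with 13.6% of its counts on genes of the mitochondrial genome, edgeR called 1 cytosolic enzyme higher. Squared differences between 2 Palbociclib tumors, relative to counting noise, averaged 4.87 to 21.4 per gene, against at most 8.53 in the other tumor groups. The 0 calls before correction therefore do not show that no enzyme changed. FARSA, at 44.0, 29.2, 44.3, 35.8 and 53.2 CPM, spanned the 3 Control tumors.

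Combination tumors were also set against the tumors given Palbociclib alone. Against Palbociclib tumors 9 cytosolic enzymes fell and 9 rose, and 5 mitochondrial enzymes fell and 4 rose (27.5% and 20.1% of all genes). The changes were led by FARSA at -1.765 ± 0.17 (adjusted p = 9.40e-08) and SARS2 at -1.73 ± 0.21 (adjusted p = 1.90e-06), and Pearson's r with GC content was -0.89. After correction 3 cytosolic enzymes fell and 2 rose, and 3 mitochondrial enzymes fell and 3 rose, against 7.97% and 7.35% of all genes. These comparisons share the combination tumors with the one against Control tumors.

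Few enzymes differed between the combination and Telaglenastat alone. Of the cytosolic enzymes 3 were higher in combination tumors than in Telaglenastat tumors (WARS, SARS and NARS) and 0 lower, and 0 mitochondrial enzymes were called, against 8.93% and 9.89% of all genes. WARS, the tryptophan enzyme, had 89.8, 104, 90.5 and 87.9 CPM against 81.0, 72.8, 78.3 and 79.9 CPM. The groups did not overlap, and the log2 fold change was 0.26 ± 0.08 (adjusted p = 0.0326), a call lost after correction (0.22, adjusted p = 0.0668). After correction NARS, RARS and LARS were higher and 0 members lower, against 8.49% and 7.21% of all genes, so that NARS alone was called in both fits. Without combination tumor 2 or Telaglenastat tumor 3 the count was 0, and without Telaglenastat tumor 2 it was 1. Of the mitochondrial enzymes 0 passed at an unadjusted p under 0.05 by edgeR, and DESeq2 also called 0.

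No enzyme was called in the drug-free cultures. In each of the 5 comparisons between culture groups edgeR called 0 members in either direction. The shares over all 13985 genes were 0% for Palbociclib against Control, 0% for Telaglenastat against Control, 0.00715% for the combination against Control, 0% for the combination against Palbociclib and 0% for the combination against Telaglenastat. At an unadjusted p under 0.05 the cytosolic enzymes counted 0, 0, 1, 0 and 3 in that order and the mitochondrial enzymes 1, 1, 0, 0 and 2, where all genes counted 592, 898, 895, 277 and 1969. DESeq2 also called 0 members in all 5. The culture groups shared a single estimate of the spread, which includes the wide spread of the Telaglenastat cultures. The 0 calls therefore do not show that no enzyme changed.

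The cytosolic enzyme with the lowest value in combination cultures was FARSA. It had 28.1, 21.5 and 34.0 CPM in Control cultures and 16.4, 17.3 and 16.1 CPM in combination cultures, a log2 difference of -0.75 ± 0.38 (adjusted p = 0.68) that was -0.38 ± 0.21 after correction. The 3 combination cultures were below the 3 Control cultures. The mitochondrial enzyme AARS2 had a lower value, at -0.935, and was not called either. Its levels were 7.76, 6.53 and 7.55 CPM in Control cultures and 2.82, 4.14 and 4.42 CPM in combination cultures. In Telaglenastat cultures FARSA had 15.4, 58.9 and 21.0 CPM, and VARS 82.2, 241 and 83.1 CPM, so culture 2 was far above the other cultures of its group. In Palbociclib cultures the member values also ran with GC content (r = -0.84), down to -0.59 for VARS and FARSA, as they did in the combination cultures (r = -0.69).

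**Figure D5:**
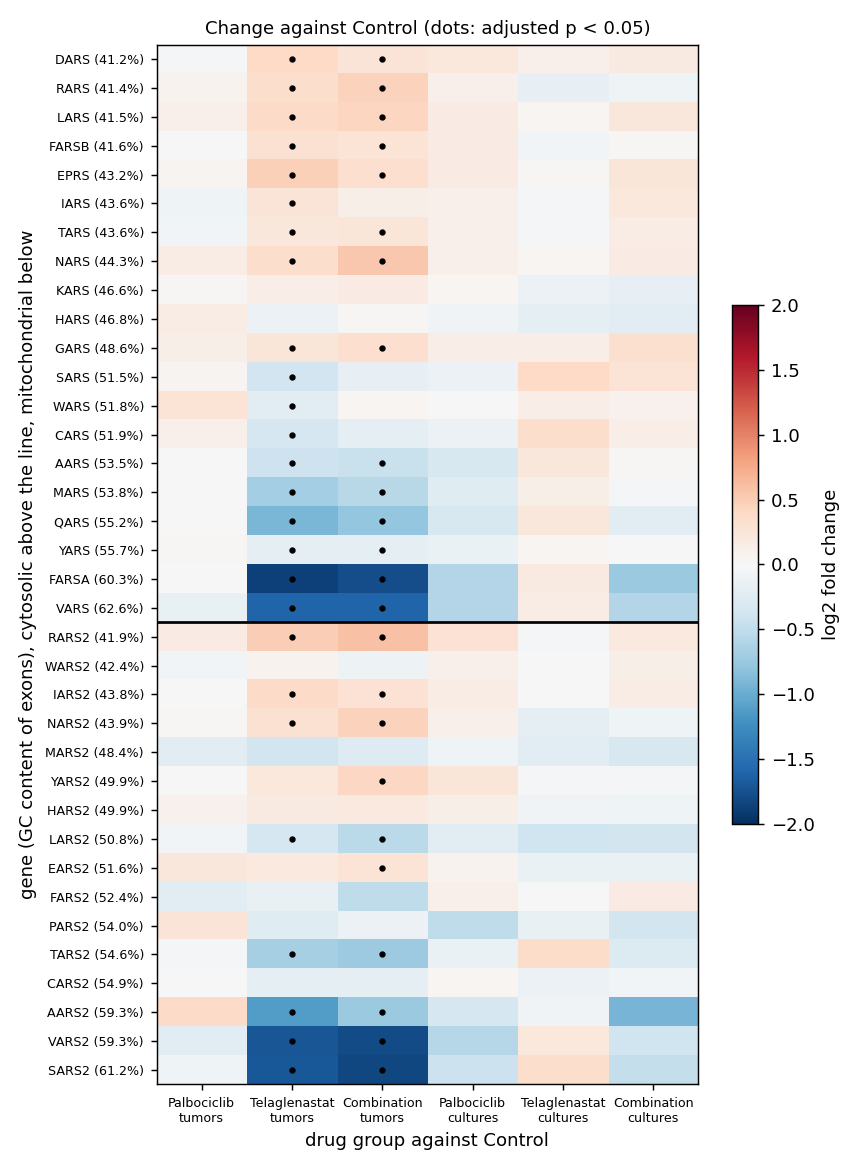
Log2 fold change against Control (color, -2 to 2) of the 36 enzymes (rows, ordered by GC content of the longest transcript, labelled there as exons, within the cytosolic and the mitochondrial class) in 3 drug groups of tumors and 3 of cultures (columns); dots mark an adjusted p under 0.05. Dots are found only in the Telaglenastat and combination tumors, with rises at the top and falls at the bottom of each class.

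The change with Telaglenastat was also tested for a difference between tumors and cultures. In 14 cytosolic enzymes the change differed (5 more negative and 9 more positive in tumors), as it did in 6 mitochondrial enzymes (3 and 3), against 18.5% of all genes more negative and 15.6% more positive. FARSA differed by -1.97 ± 0.41 (adjusted p = 9.66e-04) and SARS2 by -1.96 ± 0.41 (adjusted p = 9.95e-04). After correction 3 members were called (QARS lower, YARS and EARS2 higher), against 4.8% of all genes in either direction. Without Telaglenastat culture 2 the uncorrected counts were 7 and 3, and without Control culture 2 the cytosolic count was 7.

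For Palbociclib 0 members differed between tumors and cultures by edgeR or DESeq2 (1.39% of all genes in either direction), with 1 mitochondrial and 0 cytosolic enzymes at an unadjusted p under 0.05 by edgeR. For the combination only NARS differed (2.91% of all genes), at 0.47 ± 0.11 (adjusted p = 0.0232), and its call was lost after correction (0.27, adjusted p = 0.188). NARS had 309, 312, 291 and 296 CPM in combination tumors and 593, 526 and 587 CPM in combination cultures, against 196, 191 and 195 CPM in Control tumors and 498, 492 and 529 CPM in Control cultures. It was higher than in every Control library of its kind in all 4 tumors and in 2 of the 3 cultures.

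The partners of the multi-synthetase complex gave another opposite pair. In Telaglenastat tumors AIMP1 rose by 0.51 ± 0.09 (adjusted p = 1.05e-04), AIMP2 fell by 1.17 ± 0.19 (adjusted p = 4.40e-05) and EEF1E1 did not pass. Over all genes 28.5% fell and 22.6% rose. After correction only the fall of AIMP2 was called, at -0.90 ± 0.18 (adjusted p = 0.0017), against 8.4% of all genes lower and 6.33% higher. In Control tumors against Control cultures AIMP1 and EEF1E1 were lower, EEF1E1 by 1.26 ± 0.15 (adjusted p = 1.88e-07), where 22.8% of all genes were lower and 23.1% higher.

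Genes of the ATF4 program, the 19 genes around the amino acid response listed with the synthetases, were lower in Control tumors than in Control cultures in 9 cases and higher in 1 (DDIT4), with a median of -0.44 (22.8% and 23.1% of all genes). After correction 13 were lower and 1 higher (22.8% and 17.7%). ATF4 itself was at 232 to 282 CPM in tumors and 478 to 572 CPM in cultures, a difference of -1.03 ± 0.12 on the log2 scale (adjusted p = 1.03e-07). ASNS, asparagine synthetase, was at 60.7 to 70.1 CPM and 304 to 440 CPM, a change of -2.46 ± 0.30 (adjusted p = 1.92e-07). CHAC1, a glutathione-degrading enzyme, had the largest change at -3.54 ± 0.65 (adjusted p = 6.17e-05), from 3.84 to 12.8 CPM in cultures to 0.521 to 0.837 CPM in tumors. The kinase gene EIF2AK4 was lower by 0.33 ± 0.09 (adjusted p = 0.00283).

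In Telaglenastat tumors 12 of the 19 fell and 1 rose against Control tumors (28.5% and 22.6% of all genes), which became 1 and 4 after correction (8.4% and 6.33%). ATF4 was not called at -0.16 (adjusted p = 0.0768) but was higher after correction at 0.65 ± 0.09 (adjusted p = 4.14e-05). ASNS was not called either way, at 0.26 (adjusted p = 0.0715) and 0.14 (adjusted p = 0.486), and EIF2AK4 rose by 0.29 ± 0.09 (adjusted p = 0.00835), a call lost after correction (adjusted p = 0.18). The only fall that was called in both fits was that of PHGDH, which makes serine precursors, at -1.54 and -1.22. In combination tumors 8 fell and 1 rose (26.9% and 17.6% of all genes), or 3 and 4 after correction (13.1% and 13.3%), and PHGDH moved most, at -2.27 ± 0.22 (adjusted p = 1.35e-07) and -1.97 after correction.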

How the data were processed

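The authors sequenced strand-specific poly(A) libraries, aligned them with STAR and deposited whole-number read counts per gene, without normalization (hg38 and CASAVA 1.8 are named in the submitters' notes). Strand use in counting is not given in the sources used here. Depth per library was 6273834 to 13815675 counts.

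The counts were tested with edgeR 4.0.16 in R 4.3.3 (filterByExpr with minimum count 10, TMM, glmQLFit, glmQLFTest), with adjustment over all genes tested: 14848 in the 16 tumors, 13985 in the 12 cultures and 15466 in all 28 libraries. P-values measure the spread between these libraries. Exons, GC content and overlaps came from GENCODE 29, GC content from the longest transcript of each gene and length from all its exons. The correction removed a robust spline trend (4 df, rlm in MASS) on GC content and log length from each library. On simulated counts for Telaglenastat against Control tumors, 91% of 199 genes changed 2-fold were recovered, with 5 false calls. The simulation drew all tumors from the Control proportions with a fixed dispersion and no GC trend. It therefore does not cover the difference in GC slope between these tumor groups. Alternatives were DESeq2 1.42.0, its size factors, other filters, the compared groups only, the replicate block, the correction and leaving out each library.

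The members, gene lists and tests were chosen with earlier results of these data known. Enzymes given in full were the 3 of each class with the largest called change against Control, 1 of each class in other comparisons, the most and least abundant per kilobase and the pairs with the most and least changed ratio. FARSB, QARS and WARS2 in tumors against cultures, RARS2, YARS, the culture values and the ratios for phenylalanine, glutamate and proline were added after values were seen. Pseudogenes named after members held at most 0.13% of the member's counts. A related gene of the lists is not reported here.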

Additional observations from a re-analysis of the deposited data

Results flagged for a closer look

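In 51 group-wise checks of class levels and of the enzymes described in full, 3 values lay far from the rest of their group, where chance gives about 1 in 20. They were WARS at 123 CPM in Palbociclib tumor 1, WARS at 104 CPM in combination tumor 2, and EPRS at 408 CPM in Telaglenastat tumor 2.

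The change with Telaglenastat differed between tumors and cultures for 14 cytosolic and 6 mitochondrial enzymes by the test of that difference, led by FARSA (-1.97) and SARS2 (-1.96). Over all genes 18.5% were more negative and 15.6% more positive. After correction 3 members were called, against 4.8% of all genes. For the combination it differed for 1 cytosolic enzyme, NARS (0.47), against 2.91% of all genes, and that call was lost after correction.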

How the results depend on the processing

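Of 216 counts of called enzymes under other settings 184 stayed within 1.5 times the reported count, as did 485 of 504 with a library left out. For enzymes described in full 152 of 179 values under other settings and 409 of 428 with a library left out kept direction and call. The causes of the changes below were not tested. The counts below stand without the share over all genes, so they show only how the number of called members moved.

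The GC and length correction left 4 cytosolic and 3 mitochondrial calls for Telaglenastat tumors against Control, 9 cytosolic calls for the combination against Control, 5 for the combination against Palbociclib and 1 for Palbociclib against Control. For the difference between tumors and cultures it left 2 and 1 with Telaglenastat and 0 cytosolic calls with the combination. AARS2 in combination tumors turned from -0.75 to 0.12 (not called). The cytosolic minus mitochondrial level became 2.73 in Control and 2.76 in Palbociclib tumors, and 2.75 and 2.85 with the median over enzymes. Corrected, it was 2.68 ± 0.07 in Telaglenastat tumors, below the Control tumors instead of above them, and 2.79 ± 0.10 in combination tumors.

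Deviations of same-numbered libraries from their group means had a median r of -0.004 in tumors and -0.034 in cultures. Single pairs ran from -0.128 to 0.09 in tumors and from -0.423 to 0.14 in cultures. A median r near 0 cannot tell whether some of these libraries shared a mouse or a day. With the replicate block alone the counts were 17 and 8 for Telaglenastat tumors and 14 and 10 for combination tumors against Control, and 1 mitochondrial enzyme was called for the combination difference between tumors and cultures. With the replicate block and the correction the counts were 3 cytosolic and 2 mitochondrial (Telaglenastat against Control), 9 and 6 (combination against Control), 5 and 5 (combination against Palbociclib), 1 and 0 (Telaglenastat, tumors against cultures) and 0 cytosolic (combination, tumors against cultures), and AARS2 was at 0.12.

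Among cytosolic enzymes DESeq2 called 2 and a minimum of 10 counts in every library 1 for Palbociclib tumors, and the compared groups alone gave 1 for the combination against Telaglenastat tumors. Without a low-count filter the cytosolic counts were 0 for that comparison, 1 for Palbociclib and 1 for combination cultures against Control, 3 for combination against Telaglenastat cultures, 8 for the Telaglenastat and 5 for the combination difference between tumors and cultures, with 3 and 2 mitochondrial. For that combination difference the minimum of 10 counts gave 3 cytosolic and 1 mitochondrial, and DESeq2 1 mitochondrial.

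Leaving out each library in turn gave 0 to 1 cytosolic enzymes for Palbociclib tumors, 0 to 3 for the combination against Telaglenastat tumors, 0 to 1 for the combination against Telaglenastat cultures (1 without Telaglenastat culture 1), 7 to 15 cytosolic and 3 to 9 mitochondrial for the Telaglenastat difference between tumors and cultures, and 0 to 5 of each class for the combination difference. The last was 5 and 5 without Telaglenastat culture 2, 3 cytosolic without Telaglenastat culture 1 or 3, 2 mitochondrial without Telaglenastat culture 3, and 0 cytosolic without any 1 of the Control tumors, Control culture 3 or combination cultures 2 or 3. Telaglenastat tumors against Control kept 14 to 18 cytosolic and 6 to 9 mitochondrial calls, combination tumors 12 to 15 and 7 to 10, and Control tumors against Control cultures 16 to 18 and 6 to 10.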

Other observations

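Mitochondria have no glutamine synthetase of the kind described above: their glutamine transfer RNA is first charged with glutamate by EARS2 and then amidated by QRSL1, GATB and GATC. All 3 amidase genes were lower in Control tumors than in Control cultures, led by QRSL1 at a log2 fold change of -0.84 ± 0.12 (adjusted p = 1.89e-06), where 22.8% of all genes were lower and 23.1% higher, and 1 of the 3 was lower after the GC and length correction. In Telaglenastat tumors 0 of the 3 were called against Control tumors (28.5% of all genes lower and 22.6% higher). After correction 1 fell (8.4% and 6.33%). In combination tumors GATB fell by 0.72 ± 0.15 (adjusted p = 5.31e-04), from 20.5 to 24.3 CPM in Control tumors to 11.9 to 16.3 CPM.

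MTFMT, which formylates the mitochondrial initiator transfer RNA, was lower in Control tumors than in Control cultures by 0.71 ± 0.14 (adjusted p = 2.22e-04), and it was also lower after correction. In Telaglenastat tumors it rose by 0.40 ± 0.12 (adjusted p = 0.00823) and was not called after correction. Among 5 genes that clear mischarged or stalled transfer RNA, 2 fell in Telaglenastat tumors (DTD1 and AARSD1) and 1 rose (DTD2). Over all genes 28.5% fell and 22.6% rose. In combination tumors 2 fell and 2 rose, against 26.9% and 17.6% of all genes. After correction 1 fell and 0 rose in each. The corrected shares over all genes were 8.4% and 6.33% with Telaglenastat and 13.1% and 13.3% with the combination.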
